A study of Mus musculus with 25 samples.

Results

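Hepatocytes in which Stat3 had been deleted were compared with wild-type hepatocytes after both had been exposed to IL-6 from an injected plasmid. The comparison took the 3 libraries labelled IL6_STAT3KO and the 3 labelled IL6 out of the 25 libraries of the study, and used every gene of the hepatocyte count table. The IL6 group (n = 3) held hepatocytes of wild-type mice, genotype WT, 1 week after hydrodynamic tail vein injection of IL6 plasmids, a method that pushes naked DNA into liver cells. The IL6_STAT3KO group (n = 3) held hepatocytes of mice with floxed Stat3 that had received AAV-TBG-Cre for 2 weeks and the same plasmid for 1 week. Hepatocytes of wild-type mice given GFP plasmids for 1 week (n = 2) served as the level without IL-6. Floxed mice on a DDC diet for 1 week, with AAV-TBG-GFP (n = 2) or AAV-TBG-Cre (n = 3) for 2 weeks, gave a second comparison of deleted against undeleted hepatocytes. All animals had the strain label C57BL/6J 129SV, and age and sex were not given in the sources used here. TBG is a promoter active in hepatocytes, so other liver cells were not a target of the Cre virus.

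The design limits what the genotype term can mean. The labels of the IL6 mice name no virus, so the floxed allele, the AAV-Cre and the level of Il6 differed together between the groups and their parts cannot be told apart. No library came from floxed mice with the IL6 plasmid and without Cre. Whether each replicate is an animal of its own is not stated in the labels, so p-values here measure the spread of these libraries only, part of which may be technical.

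IL-6 binds its receptor together with gp130, the signal-transducing chain shared by a family of cytokines. Receptor-bound JAK kinases then phosphorylate STAT3, which enters the nucleus, and SOCS3 shuts the receptor off again. In the liver this pathway is known for the acute phase response, in which hepatocytes secrete haptoglobin, fibrinogen, serum amyloid A and other plasma proteins. Interferons use receptors of their own and induce genes of antiviral defence and antigen presentation.

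Of 14339 genes tested, 3781 (26.4%) differed between the groups at an adjusted p under 0.05 (edgeR quasi-likelihood test, Benjamini-Hochberg adjustment, the rule for every call below). In STAT3KO hepatocytes 1866 genes were higher (13%) and 1915 lower (13.4%), and the median log2 fold change of all genes tested was 0.00. The higher count was 1229 without wild-type replicate 1 and 1199 without wild-type replicate 2, and the lower count 1264 without STAT3KO replicate 3. Log2 fold changes are STAT3KO over wild type under IL-6, with their standard error, and levels are counts per 1000000 (CPM) in replicates 1, 2 and 3. Called genes with a log2 fold change over 2 in size numbered 588 higher and 673 lower, and 187 and 273 passed 4. Over 1 in size were 8.25% of tested genes on the higher and 9.04% on the lower side. The called-lower genes took 47.4, 48.9 and 50.1% of all counts in the wild-type libraries and 11.3, 11.98 and 10.7% in the STAT3KO libraries. The called-higher genes took 7.29, 7.81 and 8.71% in wild type and 29.8, 26.7 and 31.6% in STAT3KO. In the GFP plasmid libraries the same genes took 12 and 11.3% and 27.5 and 27.6%, which was near the STAT3KO shares. STAT3KO and GFP plasmid libraries differ in genotype, virus and plasmid, and were not tested against each other. The 3 STAT3KO and 3 wild-type libraries did not overlap for 22% of tested genes on the higher side and 22.9% on the lower side, the background for each statement on overlap. The plot of all genes by level and fold change shows both arms.

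**Figure D1:**
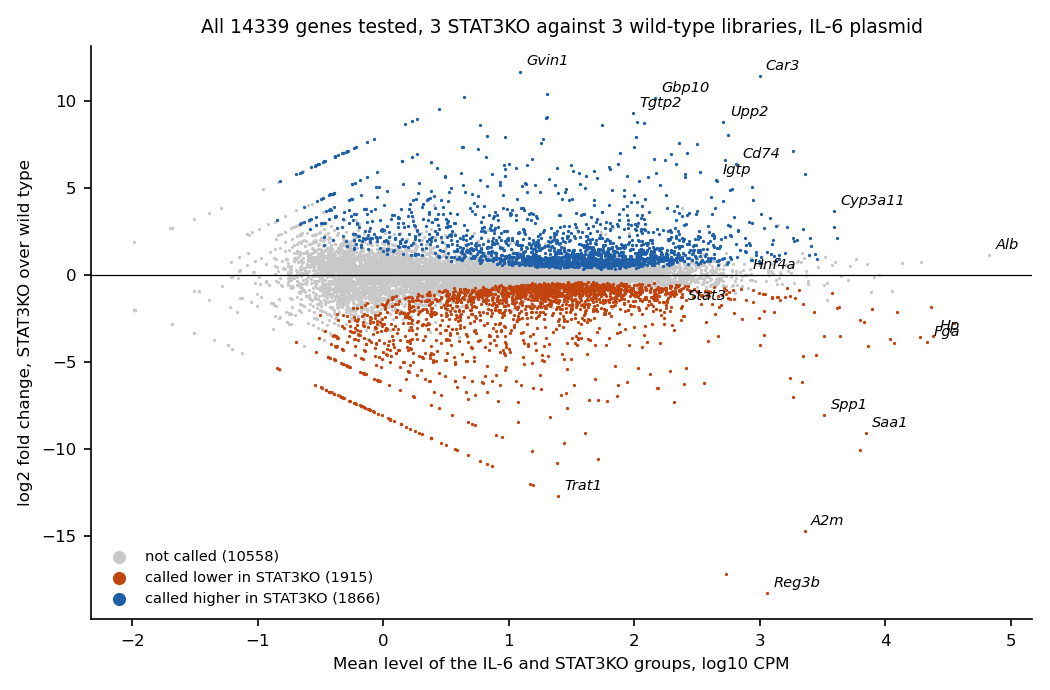
Each point is a gene, with the mean level of both groups on the x axis (log10 CPM) and its log2 fold change of STAT3KO over wild-type hepatocytes under IL-6 on the y axis. Genes called higher (1866) and lower (1915) are coloured, 7 genes without a count in both groups are not drawn, and the straight rows of points are genes with no count in a group, whose fitted value depends on the prior count.

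Sequencing depth was alike, at 16517750 to 18388946 counts in wild-type and 16184015 to 17459452 in STAT3KO libraries. Wild-type replicate 3 stood apart. Its log-level correlation with the other wild-type libraries was 0.948 and 0.958, while these reached 0.983 with each other. In the 3 wild-type libraries Alb, the gene of serum albumin, stood at 84156, 33887 and 6388 CPM, so that replicate 3 was the low one. Counts of an EGFP transgene were 117, 93 and 7795 in the wild-type libraries, 14, 9 and 23 in the STAT3KO libraries and 34 and 35 in the GFP plasmid libraries. The mitochondrial share of counts was 2.05 to 2.76% in wild type and 4.16 to 5.92% in STAT3KO. What these library differences contribute to the results was not tested. Some of the counts that move without wild-type replicate 3 are given beside the results.

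Stat3 (chr11:100885098-100939540, minus strand, GRCm38) was read first, as the targeted gene. It stood at 339.7, 351 and 424 CPM in wild type, 116, 96.0 and 116 CPM in STAT3KO and 109 and 98.9 CPM in the GFP plasmid libraries. Every STAT3KO library lay below every wild-type library and near the level of the undeleted GFP plasmid libraries, and the log2 fold change was -1.77 ± 0.21 (adjusted p = 1.01e-04, edgeR). The deleted exons are not named in the labels, and counts from exons outside the deletion and from undeleted cells cannot be told apart. Since undeleted libraries without IL-6 reach the same level, the whole-gene count does not show the deletion.

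In the IL-6 pathway the 2 chains of the IL-6 receptor were not called, while Il6, the receptors Osmr and Lifr and the feedback inhibitor Socs3 were. Il6 itself was counted at 4.89, 3.21 and 351 CPM in wild type and 0.743, 0.559 and 1.05 CPM in STAT3KO, against 0 and 0.0688 CPM with the GFP plasmid. The groups did not overlap, but replicate 3 alone carried most of the wild-type signal, and the log2 fold change was -7.24 ± 1.75 (adjusted p = 0.0128, edgeR). Without wild-type replicate 3 it was -2.34. The call was lost without STAT3KO replicate 1 (adjusted p = 0.0521) or replicate 3 (adjusted p = 0.0503). The IL-6 receptor chain Il6ra (73.2, 54.6 and 66.0 against 88.5, 68.7 and 86.2 CPM) and gp130 itself, Il6st (191, 218 and 255 against 172, 146 and 154 CPM), were not called.

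Other cytokine receptors split. Osmr, the oncostatin M receptor, stood at 54.0, 57.1 and 71.6 CPM in wild type and 1.18, 3.04 and 2.27 CPM in STAT3KO, with 1.02 and 1.45 CPM in the GFP plasmid libraries. All 3 STAT3KO values were near the level without IL-6, a log2 fold change of -4.81 ± 0.45 (adjusted p = 2.14e-05). Lifr, the receptor of leukaemia inhibitory factor, ran the other way, at 61.3, 62.3 and 43.7 CPM in wild type and 364, 401 and 339.6 CPM in STAT3KO (log2 2.72 ± 0.31, adjusted p = 7.74e-05), without overlap. Of the IL-1 receptor pair, which does not signal through gp130, Il1r1 fell (-2.81 ± 0.46) and its accessory chain Il1rap rose (1.51 ± 0.35). Clcf1, a further gp130 ligand, stood at 6.29 to 6.39 CPM in wild type and 0.758 to 1.55 CPM in STAT3KO (-2.49 ± 0.47).

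Downstream of the receptor, 1 of 10 JAK and STAT genes was called higher and 2 lower, near the background of 13% and 13.4%. The lower ones include Stat3 itself. Jak3, a JAK kinase of blood cells, fell with Stat3 (-2.62 ± 0.34, 43.8 to 54.2 against 6.77 to 10.2 CPM). The feedback inhibitors were called lower for 4 of 16 genes and higher for 1. The strongest was Socs3, at 270.2, 292 and 216 CPM in wild type against 6.69, 4.54 and 3.97 CPM in STAT3KO and 11.7 and 11.97 CPM with the GFP plasmid. STAT3KO values lay below those without IL-6 in all 3 libraries, and the log2 fold change was -5.68 ± 0.36 (adjusted p = 2.16e-06). The phosphatases Ptpn2 (-1.54 ± 0.19) and Ptpn1 (-1.02 ± 0.17), which take phosphate off JAKs and STATs, fell too. Of 19 listed transcription and survival targets of STAT3, 10 were lower and 1 higher, with a median of -1.0. Among them were the AP-1 factors Fosl2 (-1.74 ± 0.25) and Junb (-1.56 ± 0.27), the clock repressor Nfil3 (-1.86 ± 0.31) and Klf6 (-1.46 ± 0.28). The exception, cyclin D1 (Ccnd1), stood at 25.6, 22.99 and 8.11 CPM in wild type and 51.1, 107 and 35.1 CPM in STAT3KO (1.77 ± 0.48), and its call was lost without STAT3KO replicate 2 (adjusted p = 0.0792).

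**Figure D2:**
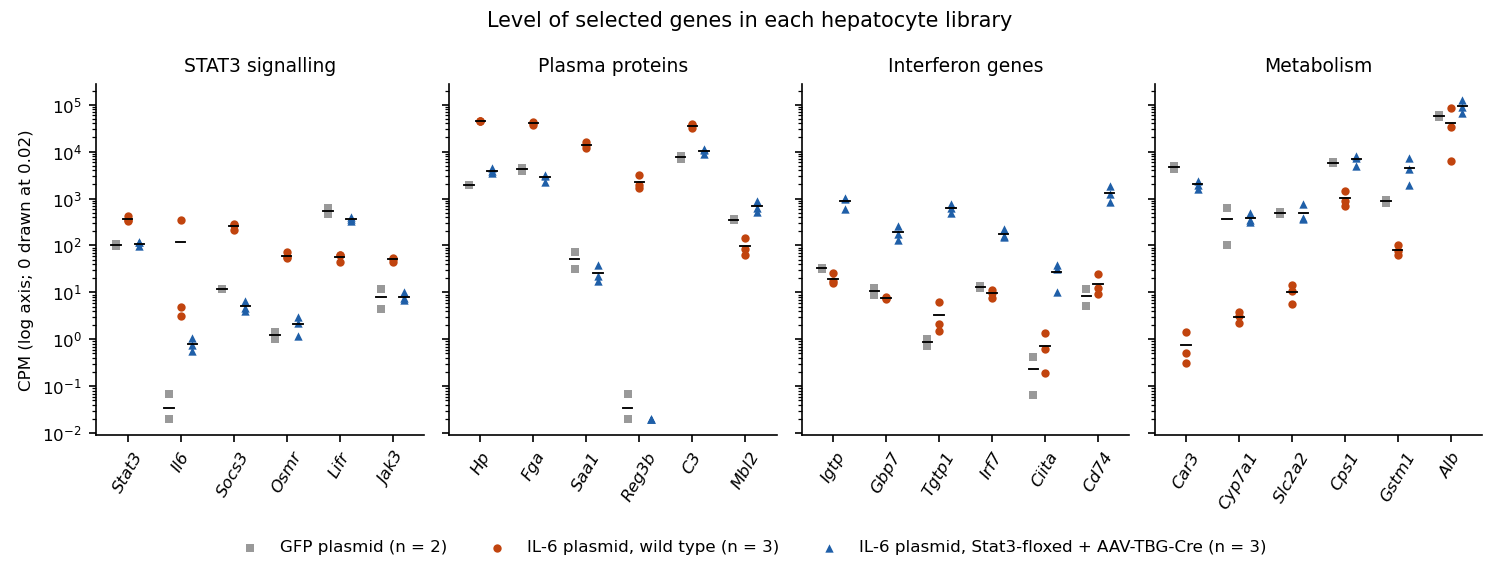
Level of selected genes in each hepatocyte library (y axis, CPM on a log scale, 0 drawn at 0.02), a point per library of the GFP plasmid, IL6 and IL6_STAT3KO groups and a bar at each mean, in panels for signalling, plasma proteins, interferon genes and metabolism. Socs3, Osmr and Hp sit high in the IL6 group, Igtp, Irf7 and Cd74 in the IL6_STAT3KO group, and Cps1 and Slc2a2 in both groups other than IL6.

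The secreted acute phase proteins made up a large part of the counts that were lower. Of 22 tested members 21 were called lower and none higher, with a median log2 fold change of -3.99. Their summed share of counts was 16.5, 18.5 and 20.3% in wild type, 1.79, 2.06 and 2.03% in STAT3KO and 1.20 and 1.24% with the GFP plasmid. STAT3KO shares lay far below wild type and above the shares without IL-6 in all 3 libraries. In bulk libraries, fewer cells of a type and less RNA of a gene per cell cannot be told apart. The exception was Saa4, the constitutive serum amyloid A (1145, 836 and 638 against 639, 543 and 507 CPM, adjusted p = 0.352).

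Haptoglobin (Hp), which binds free haemoglobin, stood at 44068, 44321 and 45308 CPM in wild type and 3779, 3479 and 4456 CPM in STAT3KO, with 1946 and 1916 CPM in the GFP plasmid libraries. The replicates lay close together within each group and the log2 fold change was -3.51 ± 0.34 (adjusted p = 2.74e-05). Haemopexin (Hpx), the scavenger of free haem, was the called gene with the largest loss in CPM, from 62155, 61826 and 59362 to 7002, 10473 and 9450 CPM (-2.77 ± 0.29). Here the STAT3KO libraries stayed above the GFP plasmid libraries, which held 3327 and 3406 CPM. The inducible serum amyloid A genes Saa1 and Saa2 had larger fold changes than these. Saa1 stood at 11912, 13905 and 16146 CPM in wild type and 21.9, 37.9 and 17.4 CPM in STAT3KO (-9.09 ± 0.81). Saa2 stood at 10104, 12320 and 15103 CPM in wild type and 1.55, 32.1 and 1.87 CPM in STAT3KO, where replicate 2 was the high one (-10.05 ± 1.48). Both genes are near-identical neighbours on chromosome 7, so reads may have been split between them in counting. Pzp, a broad inhibitor of proteases outside the list, stood at 23509, 19152 and 17669 CPM in wild type and 4391, 5596 and 4132 CPM in STAT3KO (-2.10 ± 0.28). Steap4, a metalloreductase of the inflamed liver, was chosen after its values were seen and stood at 2063, 1978 and 1917 CPM in wild type and 193, 184 and 169 CPM in STAT3KO (-3.45 ± 0.30).

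Blood clotting genes were lower in part. Of 16 coagulation factors 6 were lower and 2 higher (median -0.42), the latter near the background share of 13%. All 3 chains of fibrinogen, the protein of the clot, fell. Fga, the alpha chain, stood at 43456, 37418 and 40128 CPM in wild type and 2999, 3242 and 2247 CPM in STAT3KO (-3.83 ± 0.35, adjusted p = 1.86e-05). Fgg, the gamma chain, stood at 23261, 18083 and 19636 CPM and 1678, 1808 and 1274 CPM (-3.68 ± 0.34). Plasma prekallikrein (Klkb1), which acts in the contact pathway, went up from 23.8, 10.1 and 15.2 to 152, 101 and 133 CPM (2.98 ± 0.31). Of 16 anticoagulant and fibrinolysis genes 8 fell and none rose, among them vitronectin (Vtn, 6086 to 7506 against 1664 to 2014 CPM, -1.84 ± 0.21) and the fibrinolysis inhibitor Cpb2 (-2.13 ± 0.26). That count was 5 without STAT3KO replicate 3.

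Of 18 complement components 5 were higher and 2 lower, the latter below the background share of 13.4%. The higher count was 3 without wild-type replicate 2 and 3 without STAT3KO replicate 2. C3, the central component, stood at 37341, 32166 and 38261 CPM in wild type and 11262, 10808 and 8673 CPM in STAT3KO (-1.81 ± 0.28, adjusted p = 6.76e-04). Mbl2, a mannose-binding lectin that starts the lectin pathway, ran against it, at 63.8, 142 and 83.8 and 515, 905 and 615 CPM (2.81 ± 0.36). The groups did not overlap in either gene. Of 10 regulators 4 fell, with the C1 inhibitor (Serping1, -1.31 ± 0.20) among them. Of 14 negative acute phase proteins, which inflammation lowers in plasma, 5 rose and 2 fell, where the higher count was 3 without wild-type replicate 2, 3 without STAT3KO replicate 1 and 3 without STAT3KO replicate 3. Serpina6, the corticosteroid carrier, stood at 13.5, 15.6 and 13.04 CPM in wild type, 354, 419.8 and 255 CPM in STAT3KO and 341 and 308 CPM with the GFP plasmid (4.61 ± 0.46). The thyroxine carrier Ttr rose as well (1011 to 2184 against 5436 to 8580 CPM, 2.15 ± 0.32). Alb overlapped between the groups (67514, 123018 and 89784 CPM in STAT3KO) and was not called (1.17 ± 0.65, adjusted p = 0.209), but passed without wild-type replicate 1 (2.20, adjusted p = 0.0284). Of 17 apolipoproteins 3 rose and 1 fell, near or below the background of 13% and 13.4%.

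Several of the lower genes with the largest fold changes were near 0 in the STAT3KO libraries. Reg3b, a secreted C-type lectin, stood at 1964, 1695 and 3218 CPM in wild type and was without a count in the STAT3KO libraries, at least 38105-fold lower against a floor of 3 counts over the group. Its relative Reg3g stood at 754, 775 and 1693 CPM in wild type and at 0 in STAT3KO (at least 18055-fold lower). A2m, the protease inhibitor alpha-2-macroglobulin of rodent acute phase plasma, stood at 787, 382 and 12595 CPM in wild type and 0.248, 0.186 and 0.0583 CPM in STAT3KO (-14.72 ± 1.70). For all 3 genes wild-type replicate 3 was the highest library, for A2m by far, and both GFP plasmid libraries were near 0 as well. Mt3, the metallothionein known from brain, stood at 30.6, 52.6 and 9.61 CPM in wild type and at 0 in all 3 STAT3KO and both GFP plasmid libraries, at least 511-fold lower. The ectonucleotidase Entpd3 stood at 34.4, 42.3 and 12.04 CPM and 0 (at least 482-fold lower). Timp1, an inhibitor of matrix proteases, stood at 34.2, 28.3 and 8.05 CPM in wild type and 0.0619, 0 and 0.117 CPM in STAT3KO, where few counts gave a ratio of 374 (95% counting interval 128 to 1818). Slc10a6, a carrier of sulphated steroids, stood at 35.8, 30.6 and 60.6 CPM in wild type and 0, 0.373 and 0.0583 CPM in STAT3KO (-8.15 ± 0.87). In Mt3, Entpd3 and Timp1 wild-type replicate 3 was the lowest of its group and in Slc10a6 the highest, and every STAT3KO library lay below every wild-type library. Rtn4rl2, a receptor of myelin inhibitors (64.1 to 95.6 against 0.0583 to 0.311 CPM, -9.07 ± 0.42, adjusted p = 8.15e-07), the neural adhesion molecule Chl1 (23.2 to 35.1 against 0 to 0.0621 CPM) and the epithelial actin regulator Eps8l1 (37.1 to 68.3 against 0 to 0.124 CPM) fell with them. The surface protein Igdcc4 (97.1 to 115 against 0 to 0.186 CPM) fell too, with a ratio of 1708 (95% counting interval 584 to 8287). Trat1, an adaptor of the T cell receptor, stood at 64.3, 74.6 and 8.73 CPM in wild type and at 0 in STAT3KO and GFP plasmid libraries (at least 794-fold lower).

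STAT dimers are known to bind DNA at sites with the core TTCNNNGAA, and the interferon-induced complex of STAT factors with IRF9 at the interferon-stimulated response element (ISRE), searched as GAAA, any 2 bases and GAAA. Promoter windows of RefSeq (GRCm38.p6), from 250 bases before to 50 after each gene start, were searched for both motifs on both strands. The first motif reads alike on either strand, and the second also matched as TTTC, any 2 bases and TTTC. Windows were found for 10630 of the tested genes. TTCNNNGAA was in 8.47% of all windows, in 8.68% of those of called-lower genes and in 8.41% of those of called-higher genes. Of 16 acute phase genes with a window, 3 (18.8%) held it. A match in letters is not a bound site, and so few windows allow no reading about the list. Matches of 6 genes that fell are printed with 15 bases either side, the match in capitals, to show the sequence around the core. Fga and Fgb, both fibrinogen chains, are neighbours on chromosome 3.
Socs3: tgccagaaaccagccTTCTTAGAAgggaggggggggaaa
Reg3b: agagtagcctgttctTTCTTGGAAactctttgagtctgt
Fga: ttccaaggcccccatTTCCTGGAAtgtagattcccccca
Fgb: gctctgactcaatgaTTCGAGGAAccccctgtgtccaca
Itih4: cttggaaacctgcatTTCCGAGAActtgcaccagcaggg
Steap4: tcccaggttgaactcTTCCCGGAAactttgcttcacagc
The Socs3 stretch lies at chr11:117969497-117969535 (minus strand) and starts its match 154 bases before the gene start. Those of Reg3b (chr6:78370741-78370779), Fga (chr3:83025904-83025942), Itih4 (chr14:30886410-30886448) and Steap4 (chr5:7960341-7960379) are on the plus strand, 129, 234, 51 and 116 bases before the start, and that of Fgb (chr3:83050002-83050040) is on the minus strand, 162 bases before. All 6 genes fell, and each stretch has a spacer of its own between TTC and GAA. The windows of Hpx, Saa1, Itih3 and Stat3 held no match.

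With the acute phase genes, genes of the machinery that makes and exports secreted proteins were lower. Of 38 members 21 fell and 1 rose (median -0.81, against 0.00 for all genes). Xbp1, the transcription factor of the unfolded protein response, stood at 756, 717 and 689.7 CPM in wild type, 189.5, 159 and 122 CPM in STAT3KO and 289 and 303 CPM with the GFP plasmid (-2.20 ± 0.22, adjusted p = 3.29e-05). All STAT3KO libraries were below the other groups. The disulphide isomerase Pdia4 (-1.67 ± 0.25), the translocon subunit Sec61a1 (-1.26 ± 0.21) and the translocon-associated Ssr2 (-1.11 ± 0.18) fell too. The count of lower genes was 13 without STAT3KO replicate 1. The exception, the ER stress gene Herpud1, was called higher (1.48 ± 0.42, adjusted p = 0.0217), a call lost without wild-type replicate 1 (adjusted p = 0.0566) or 2 (0.0817) or STAT3KO replicate 1 (0.0802) or 3 (0.0555). Of 49 cytosolic ribosomal protein genes 34 were lower and none higher (median -0.79), but that count was 19 without wild-type replicate 1, 15 without wild-type replicate 2, 12 without STAT3KO replicate 1 and 22 without STAT3KO replicate 3. Rps16 of the small subunit stood at 276, 311 and 218 CPM in wild type, 91.6, 135 and 122 CPM in STAT3KO and 185 and 219 CPM with the GFP plasmid (-1.21 ± 0.22). Genes of the mitochondrial respiratory chain that are coded in the nucleus ran the other way, with 24 of 47 higher and none lower (median 0.60). That count was 15 without wild-type replicate 2 and 14 without STAT3KO replicate 3. Sdhb of complex II stood at 71.7, 72.6 and 57.8 CPM in wild type and 203, 187 and 199 CPM in STAT3KO (1.54 ± 0.20), and 263 and 283 CPM with the GFP plasmid.

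**Figure D3:**
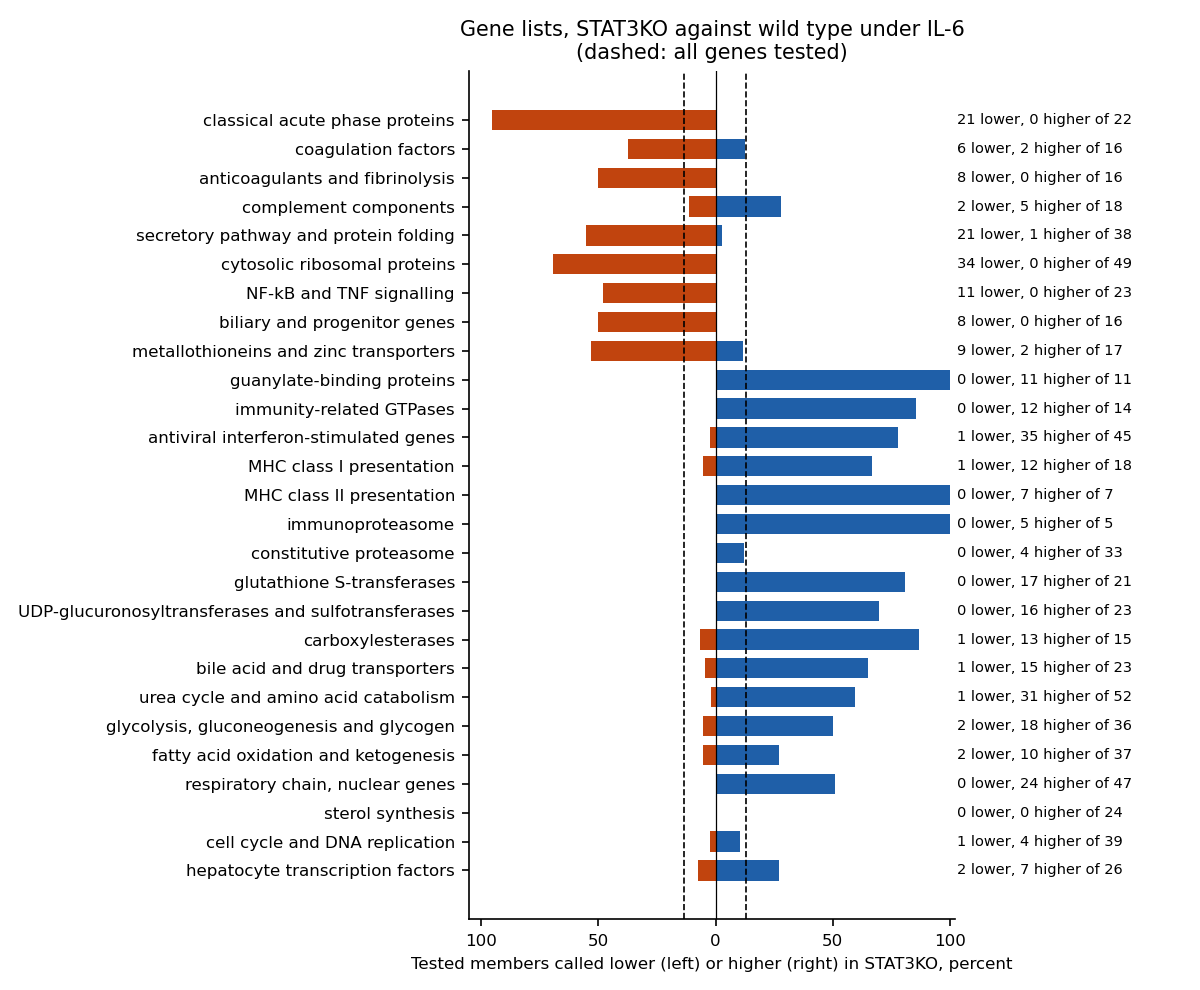
Share of the tested members of each gene list (rows) that were called lower (bars to the left) or higher (bars to the right) in STAT3KO against wild type under IL-6, in percent, with the shares of all genes tested, 13.4% and 13%, as dashed lines. The acute phase bar reaches almost fully to the left, with 21 of 22 members, and the bars of guanylate-binding proteins, MHC class II genes and the immunoproteasome fully to the right.

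Genes known as targets of interferons rose as groups. Among the immunity-related GTPases, which attack the vacuoles of intracellular parasites, 12 of 14 rose and none fell (median 3.50). All 11 guanylate-binding proteins, GTPases with the same kind of task, were called higher (median 5.51). The GTPase list summed to 476, 620.4 and 1034 CPM in wild type, 6248, 5237 and 8138 CPM in STAT3KO and 569 and 558 CPM with the GFP plasmid. All STAT3KO sums lay above those of both groups of wild-type mice, which overlapped each other. Close copies within both families (Tgtp1 and Tgtp2, and the Gbp clusters) share sequence, and their single values are less certain than the sums.

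Tgtp1 stood at 1.5, 2.16 and 6.24 CPM in wild type and 628, 499 and 758 CPM in STAT3KO (7.56 ± 0.55, adjusted p = 4.91e-06). Irgm2, which guards the cell's own membranes, stood at 22.7, 33.7 and 71.0 CPM and 578, 382 and 545 CPM (3.56 ± 0.37). Irgm1 went from 36.0, 43.0 and 54.9 to 488, 358 and 608 CPM (3.44 ± 0.26). Iigp1 was the most abundant of the family, at 307, 363 and 593 CPM in wild type and 2401, 2565 and 3627 CPM in STAT3KO (2.77 ± 0.28). Gbp7 stood at 8.05, 7.77 and 7.05 CPM in wild type and 179, 131 and 262 CPM in STAT3KO (4.64 ± 0.32). The giant GTPase Gvin1 had no count in the wild-type libraries and 26.3, 24.1 and 23.4 CPM in STAT3KO, at least 368-fold higher. Gbp10 stood at 0.0789, 0.0617 and 0.561 CPM in wild type and 238, 204 and 438 CPM in STAT3KO (10.19 ± 0.76). In each of these 7 genes the lowest STAT3KO library lay above the highest wild-type library, and wild-type replicate 3 was the highest of its group in Tgtp1, Irgm2, Irgm1, Iigp1 and Gbp10.

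Several GTPase promoters held both searched motifs side by side. Both were in 5 of 10 immunity-related GTPase windows (Gm12250, Igtp, Irgm2, Tgtp1 and Tgtp2) and in 0.593% of all windows. The ISRE was in 3.84% of all windows, in 6.80% of those of called-higher genes and in 3.99% of those of called-lower genes. Among genes called by more than 2 on the log2 scale, it was in 11.6% of windows on the higher and 4.24% on the lower side. TTCNNNGAA was in 10.05% and 11.9% of the same windows. Of 67 windows of the interferon lists 47.8% held the ISRE and 26.9% held TTCNNNGAA. Stretches of 6 called-higher GTPase genes are printed to show how the motifs lie to each other, with matches in capitals.
Tgtp1: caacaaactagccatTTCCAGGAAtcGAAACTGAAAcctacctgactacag
Tgtp2: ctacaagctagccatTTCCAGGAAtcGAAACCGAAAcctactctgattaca
Igtp: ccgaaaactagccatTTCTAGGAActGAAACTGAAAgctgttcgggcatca
Irgm2: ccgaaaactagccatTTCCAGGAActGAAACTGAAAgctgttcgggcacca
Irgm1: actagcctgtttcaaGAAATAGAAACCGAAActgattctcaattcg
Gbp7: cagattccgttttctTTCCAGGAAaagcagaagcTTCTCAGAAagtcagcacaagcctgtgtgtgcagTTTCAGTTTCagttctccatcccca
In Tgtp1 (chr11:48992299-48992349, minus strand), Tgtp2 (chr11:49064258-49064308, minus strand), Igtp (chr11:58199496-58199546, plus strand) and Irgm2 (chr11:58214887-58214937, plus strand), 2 bases separate a TTCNNNGAA match from an ISRE match. Their matches begin 88, 81, 45 and 75 bases before the gene start. Irgm1 (chr11:48871420-48871465, minus strand) held 2 overlapping ISRE matches, and Gbp7 (chr3:142530215-142530307, plus strand) 2 TTCNNNGAA matches and an ISRE match. The 4 GTPase stretches with both motifs are near copies of each other, so they are not independent examples.

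Antiviral interferon-stimulated genes moved with the GTPases, 35 of 45 higher and 1 lower (median 2.23). Ifit1, which binds viral RNA caps, stood at 1.03, 0.925 and 1.62 CPM in wild type, 45.1, 42.5 and 126 CPM in STAT3KO and 5.06 and 5.71 CPM with the GFP plasmid (5.89 ± 0.53, adjusted p = 1.79e-05). Its wild-type libraries were below the GFP plasmid libraries and replicate 3 was the high one of the STAT3KO group. Ifi44 stood at 0.711, 0.740 and 0.811 CPM in wild type and 48.8, 50.6 and 86.5 CPM in STAT3KO (6.34 ± 0.49). The growth restrictor Samd9l had the smallest adjusted p of the list, with 7.50, 8.45 and 8.36 CPM in wild type and 32.8, 37.3 and 44.1 CPM in STAT3KO (2.23 ± 0.17, adjusted p = 5.87e-06). The one listed gene to fall was Ifitm2, a block to viral entry, at 52.9, 45.2 and 29.9 CPM in wild type and 6.01, 7.76 and 7.29 CPM in STAT3KO (-2.60 ± 0.27). The Ifit promoters held paired copies of the second motif and are printed for comparison with the GTPases.
Ifit1: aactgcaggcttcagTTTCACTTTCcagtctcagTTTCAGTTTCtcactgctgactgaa
Ifit3: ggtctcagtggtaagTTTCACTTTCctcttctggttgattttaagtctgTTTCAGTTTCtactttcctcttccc
The Ifit1 stretch (chr19:34640770-34640828, plus strand) begins its matches 104 and 85 bases before the start, and that of Ifit3 (chr19:34583358-34583431, plus strand) 156 and 122 bases before. Neither stretch holds TTCNNNGAA. Ifit3 stood at 1.18, 2.22 and 1.19 CPM in wild type and 51.9, 49.6 and 141 CPM in STAT3KO (5.71 ± 0.52), and its copy Ifit3b at 0.0617 to 0.237 and 18.7 to 68.7 CPM (7.83 ± 0.83).

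Receptors and factors of the interferon system split. The interferon regulatory factors Irf7, Irf5, Irf9, Irf8 and Irf1 were higher. Irf7, the amplifier of type I interferon signals, stood at 7.50, 11.1 and 9.92 CPM in wild type and 156, 153 and 222 CPM in STAT3KO (4.22 ± 0.28, adjusted p = 3.02e-06). Irf1, the factor first induced by interferon gamma, stood at 17.9, 25.0 and 26.9 CPM in wild type and 97.3, 54.1 and 127 CPM in STAT3KO (1.99 ± 0.35), and Irf9, the DNA-binding partner of STAT factors in interferon signals, at 20.6, 27.3 and 30.1 and 62.0, 56.6 and 58.1 CPM (1.18 ± 0.17). The receptor chains Ifnar1, Ifnar2, Ifngr1, Ifngr2 and Ifnlr1 were called lower (-0.63, -1.03, -0.83, -0.70 and -2.55). Without wild-type replicate 3, 2 of these 5 receptor calls were left. Ifnar1 also lost its call without STAT3KO replicate 2 (adjusted p = 0.0647) or 3 (0.0869), and Ifngr2 without STAT3KO replicate 1 (0.0606). Ifngr1 lost it without wild-type replicate 1 (0.0941) or STAT3KO replicate 1 (0.0805) or 3 (0.0894). Ifnlr1 lost it without any single library but wild-type replicate 2 (adjusted p up to 0.109), and Ifnar2 kept it under all settings. Of 15 sensors of foreign nucleic acid 5 rose, led by the RNA helicases Ifih1 (42.8 to 44.9 against 128 to 180 CPM, 1.76 ± 0.16), Dhx58 (2.52 ± 0.26) and Ddx58 (1.22 ± 0.17). Their count was 3 without wild-type replicate 1, 3 without STAT3KO replicate 2 and 3 without STAT3KO replicate 3. Of the interferons and related ligands listed, 3 could be tested, and the cytokines Il15 (2.00 ± 0.54) and Il18 (0.81 ± 0.26) were higher at low levels, of 1.49 to 2.04 and 11.1 to 12.6 CPM in STAT3KO. Il15 lost its call without wild-type replicate 1 (0.0600) or 3 (0.0535) or STAT3KO replicate 1 (0.0520), and Il18 without any single library but wild-type replicate 2 (adjusted p up to 0.105).

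Antigen presentation rose on both arms. All 7 tested MHC class II genes, which display extracellular antigen and are known from professional immune cells, were higher (median 5.43). Cd74, the invariant chain, stood at 24.6, 12.2 and 9.05 CPM in wild type, 1221, 831 and 1814 CPM in STAT3KO and 5.25 and 11.6 CPM with the GFP plasmid (6.40 ± 0.83, adjusted p = 1.99e-04). H2-Aa, the alpha chain of the I-A molecule, stood at 5.68, 3.76 and 1.31 CPM in wild type and 285, 188 and 576 CPM in STAT3KO (6.62 ± 0.87). Ciita, the master activator of class II genes, was chosen after its values were seen, and stood at 1.34, 0.617 and 0.187 CPM in wild type and 38.5, 10.2 and 31.3 CPM in STAT3KO (5.25 ± 1.00, adjusted p = 0.00249). In all 3 genes replicate 3 was the lowest of the IL6 group and STAT3KO replicate 2 the lowest of its group.

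On the class I arm 12 of 18 genes rose and 1 fell (median 1.28). The light chain B2m stood at 970, 785 and 526 CPM in wild type and 2424, 2771 and 3754 CPM in STAT3KO (1.97 ± 0.27). H2-K1, a classical heavy chain, was among the called-higher genes with the largest gain in CPM, at 1388, 1227 and 981 and 4019, 3059 and 4643 CPM (1.71 ± 0.27). The one gene to fall was the chaperone calreticulin (Calr, -1.25 ± 0.23), which also serves the secretory pathway. All 5 immunoproteasome genes rose, with Psmb9 at 18.6, 18.9 and 12.1 CPM in wild type and 105, 95.2 and 149 CPM in STAT3KO (2.82 ± 0.39), while 4 of 33 constitutive proteasome genes did (median 0.43), or 1 without wild-type replicate 1, 1 without wild-type replicate 2, 1 without STAT3KO replicate 2 and 1 without STAT3KO replicate 3.

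Inflammatory genes outside the interferon system differed by list. Of 23 NF-kB and TNF signalling genes 11 fell and none rose (median -0.83). Il1rn, the natural antagonist of IL-1, stood at 27.9, 35.1 and 45.9 CPM in wild type and 1.92, 2.55 and 1.98 CPM in STAT3KO (-4.07 ± 0.47, adjusted p = 8.86e-05). The adhesion molecule Icam1 (53.8 to 76.9 against 8.52 to 14.7 CPM, -2.47 ± 0.31) and the NF-kB subunits Nfkb2 (-2.25 ± 0.29) and Relb (-3.47 ± 0.46) fell. All 3 wild-type libraries of these 4 genes lay above the STAT3KO libraries, with replicate 3 the highest. Of 20 chemokines 6 fell and 2 rose. The ones that rose, Cxcl9 and Cxcl11, attract T cells through CXCR3. Cxcl9 stood at 2.45, 0.986 and 1.996 CPM in wild type and 62.0, 72.3 and 244 CPM in STAT3KO (6.14 ± 0.84), with replicate 3 the high one. Cxcl1, which attracts neutrophils, stood at 142, 114 and 137 CPM in wild type and 24.7, 6.90 and 8.17 CPM in STAT3KO (-3.31 ± 0.62). Cxcl14 stood at 726, 546 and 211 and 0.619, 9.63 and 9.22 CPM (-6.25 ± 1.00). Of 23 cell death genes 5 rose, most of all the death ligand TRAIL (Tnfsf10), at 1.90, 1.54 and 2.37 CPM in wild type and 61.6, 34.0 and 67.7 CPM in STAT3KO (4.81 ± 0.44). That count was 3 without STAT3KO replicate 3. Ier3, an early gene that protects cells from death, stood at 115, 92.3 and 53.2 CPM in wild type, 0.371, 0.559 and 0.817 CPM in STAT3KO and 0.384 and 0.482 CPM with the GFP plasmid (-7.20 ± 0.39, adjusted p = 9.16e-07). Of the 20 early response and cell isolation genes 6 fell and 2 rose, and the lower count was 10 without STAT3KO replicate 1.

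The metabolic genes of the hepatocyte were the second broad group to be higher. Enzymes that conjugate drugs and hormones led. Of 21 glutathione S-transferases 17 rose (median 2.94), of 23 UDP-glucuronosyltransferases and sulphotransferases 16 (median 2.32), and of 15 carboxylesterases 13 (median 2.96). Only Ces4a fell among these 3 lists (-3.48 ± 0.54). Gstm1 stood at 76.8, 62.1 and 104 CPM in wild type, 1957, 4152 and 7408 CPM in STAT3KO and 945 and 792 CPM with the GFP plasmid (5.80 ± 0.52). In STAT3KO this gene lay above both wild-type groups, with replicate 3 the highest. Gsta3 stood at 53.0, 48.0 and 47.8 CPM in wild type, 1662, 1505 and 1878 CPM in STAT3KO and 1567 and 1657 CPM with the GFP plasmid (5.08 ± 0.37, adjusted p = 4.38e-06). Ugt2b1 stood at 19.0, 12.02 and 29.8 CPM in wild type and 779, 807 and 1065 CPM in STAT3KO (5.45 ± 0.41), below the 1370 and 1351 CPM of the GFP plasmid libraries. The esterase Ces1g stood at 3.16, 1.29 and 2.68 CPM in wild type and 525, 253 and 577 CPM in STAT3KO (7.58 ± 0.53). Gsta2 (0.0617 to 0.561 against 78.9 to 164 CPM, 8.66 ± 0.68), Gstm3 (2.84 to 6.86 against 366 to 1597 CPM, 8.05 ± 0.73) and Ces1f (0 to 1.31 against 190.3 to 292 CPM, 8.76 ± 0.84) rose among the most by fold. Gsta1 had 3 or fewer counts in the wild-type group and 12.3 to 59.7 CPM in STAT3KO, a ratio of 603 (95% counting interval 206 to 2928), and Gstp1 stood at 637 to 744 against 2069 to 4280 CPM (2.17 ± 0.34). Copies within these families are alike in sequence, so their single values are uncertain.

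Other enzymes outside these lists had large fold changes too. Carbonic anhydrase 3 (Car3), an abundant enzyme of the male liver, stood at 1.42, 0.308 and 0.499 CPM in wild type, 1611, 1966 and 2394 CPM in STAT3KO and 5006 and 4329 CPM with the GFP plasmid (11.43 ± 1.20). Upp2, a uridine phosphorylase, stood at 2.21, 2.22 and 2.43 CPM in wild type and 1077, 915 and 1078 CPM in STAT3KO (8.80 ± 1.01). Inmt, a methyltransferase of indole amines, stood at 0.316, 0.308 and 0.749 CPM and 158, 205 and 268 CPM (8.80 ± 1.01). All 3 were at a few CPM or less in wild type and far above it in every STAT3KO and GFP plasmid library.

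Amino acid and sugar metabolism followed. Of 52 genes of the urea cycle and amino acid breakdown 31 rose and 1 fell (median 1.04). Carbamoyl phosphate synthetase (Cps1), which starts the urea cycle, stood at 1456, 888 and 708 CPM in wild type, 7389, 8144 and 5045 CPM in STAT3KO and 5870 and 5710 CPM with the GFP plasmid (2.75 ± 0.47, adjusted p = 0.00115). The urea cycle enzymes Otc (2.26 ± 0.24) and Ass1 (2.16 ± 0.32) rose with it. Of 36 genes of glycolysis, glucose output and glycogen 18 rose and 2 fell (median 0.80). The glucose transporter Slc2a2 stood at 10.5, 5.67 and 14.1 CPM in wild type, 757, 362 and 384 CPM in STAT3KO and 460.4 and 506 CPM with the GFP plasmid (5.63 ± 0.47). The glycogen regulator Ppp1r3b (23.7 to 29.5 against 291 to 591 CPM, 3.96 ± 0.40) and the glycogen branching enzyme Gbe1 (2.69 ± 0.26) rose, and lactate dehydrogenase (Ldha, -1.51 ± 0.22) fell.

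Lipid pathways had smaller shares of called genes than amino acid and sugar metabolism. Of 24 sterol synthesis genes none was called in either direction (median -0.48), where 4 had an unadjusted p under 0.05 and DESeq2 called 1 lower. Of 24 genes of fat synthesis 7 rose and 1 fell, and the higher count was 4 without wild-type replicate 2. Their median of 0.80 was like that of the sugar list. The lipogenic Thrsp stood at 11.2, 18 and 2.496 CPM in wild type and 806, 701 and 459 CPM in STAT3KO (5.95 ± 1.12). Of 37 genes of fatty acid oxidation and ketone production 10 rose and 2 fell (median 0.48). Single libraries moved this count, which was 5 without wild-type replicate 1, 4 without wild-type replicate 2, 18 without wild-type replicate 3, 6 without STAT3KO replicate 1 and 6 without STAT3KO replicate 3 for the genes that rose. The peroxisomal thiolase Acaa1b, for one, stood at 23.4, 17.3 and 83.2 CPM in wild type, where replicate 3 was the high one, and 528, 260.2 and 540.3 CPM in STAT3KO (3.42 ± 0.57). Pdk4, a brake on glucose oxidation, stood at 3.32, 8.01 and 78.1 CPM in wild type and 2.72, 4.22 and 4.20 CPM in STAT3KO, so that its lower call (-3.00 ± 0.87) rested on replicate 3 and was lost without it (-0.61, adjusted p = 0.300) and without any single STAT3KO library (adjusted p = 0.0842, 0.0584 and 0.0715). The 6 libraries alone gave adjusted p = 0.0713 for it.

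Bile acid handling was higher at several steps. Of 18 synthesis genes 9 rose and 1 fell. Cyp7a1, which sets the rate of bile acid synthesis, stood at 3.79, 3.21 and 2.18 CPM in wild type, 500.1, 355 and 309 CPM in STAT3KO and 103.3 and 636 CPM with the GFP plasmid (6.99 ± 0.99, adjusted p = 3.57e-04). The 2 GFP plasmid libraries lay on either side of the STAT3KO libraries. Fgfr4, the receptor through which gut hormone represses Cyp7a1, was the one to fall (116 to 183 against 35.5 to 56.6 CPM, -1.75 ± 0.24). Of 23 bile acid and drug transporters 15 rose and 1 fell (median 1.64). Slco1a1, an uptake carrier, stood at 3.55, 2.22 and 2.68 CPM in wild type, 251, 132 and 473 CPM in STAT3KO and 1199 and 950.5 CPM with the GFP plasmid (6.67 ± 0.48), so that STAT3KO lay between the other groups. Of 23 antioxidant genes driven by NRF2 12 rose and 2 fell, with Nqo1 at 5.29, 5.18 and 6.43 CPM in wild type and 18.6, 28.4 and 42.2 CPM in STAT3KO (2.40 ± 0.27), above the 5.31 and 5.30 CPM of the GFP plasmid libraries. The count of higher genes was 7 without wild-type replicate 2 and 7 without STAT3KO replicate 3. Catalase (Cat) rose too (438 to 759 against 3170 to 4454 CPM, 2.67 ± 0.30).

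Genes of metal handling were in part lower. Of 17 metallothioneins and zinc transporters 9 fell and 2 rose (median -1.26). The zinc importer Slc39a14 stood at 1057, 965 and 1026 CPM in wild type and 256, 253 and 164 CPM in STAT3KO (-2.18 ± 0.29, adjusted p = 2.21e-04). The manganese exporter Slc30a10 stood at 83.6, 62.3 and 69.8 and 9.97, 12.49 and 11.6 CPM (-2.66 ± 0.36). Of 20 iron genes 8 fell and 2 rose, and one that rose was the iron exporter ferroportin (Slc40a1, 49.9 to 72.3 against 196 to 243 CPM, 1.84 ± 0.25). The iron genes that fell include Hp and Hpx, already counted with the acute phase, so the lists overlap. Of 19 genes of haem synthesis and breakdown 3 rose and 4 fell, not far from the background of 13% and 13.4%. The lower count was 2 without wild-type replicate 2, 2 without wild-type replicate 3, 2 without STAT3KO replicate 1 and 2 without STAT3KO replicate 3.

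Hepatocyte identity was examined by zone, sex pattern and transcription factors. Hepatocytes near the central vein and near the portal vein express different enzymes. Of 22 pericentral genes 13 rose and none fell (median 1.42), a count that was 8 without wild-type replicate 1, 8 without wild-type replicate 2 and 8 without STAT3KO replicate 1. Of 19 periportal genes 10 rose and 2 fell (median 1.11), so that both lists had more genes higher than lower. The periportal count was 6 without wild-type replicate 2, 6 without STAT3KO replicate 2 and 6 without STAT3KO replicate 3. The pericentral Cyp1a2 stood at 49.7, 46.3 and 15.3 CPM in wild type, 1413, 672 and 1265 CPM in STAT3KO and 1082 and 924 CPM with the GFP plasmid (4.91 ± 0.73). The periportal Cyp2f2 stood at 41.8, 34.1 and 37.7 CPM, 1262, 954 and 1304 CPM and 956 and 898 CPM in the same order (4.95 ± 0.36). Cyp2a5, which oxidises nicotine and coumarin, rose above the GFP plasmid level, from 13.7, 10.5 and 52.9 CPM in wild type to 3794, 1935 and 5192 CPM in STAT3KO, with 391 and 738 CPM in the GFP plasmid libraries (7.14 ± 0.74). Etnppl, a phosphoethanolamine lyase of the portal zone, stood at 0.316, 0 and 3.18 CPM in wild type and 151, 253 and 185 CPM in STAT3KO (7.35 ± 0.84). Cyp3a11, the main drug-oxidising enzyme, had the largest gain in CPM among called genes, from 971, 472 and 228 to 5499, 8014 and 8167 CPM (3.70 ± 0.49). Of 23 male-biased genes 13 rose and 2 fell, and of 25 female-biased genes 9 rose and 3 fell. The count of higher male-biased genes was 8 without wild-type replicate 1 and 8 without wild-type replicate 2, and that of female-biased genes 3 without wild-type replicate 1, 3 without wild-type replicate 2, 4 without STAT3KO replicate 2 and 4 without STAT3KO replicate 3. Of 19 major urinary protein genes, near-identical carriers of scent compounds, 10 rose, with a median of 3.44 (2.70 with genes lacking counts in a group at their bound), yet their sum overlapped, at 1070, 1688 and 2553 CPM in wild type and 1940, 1720 and 4254 CPM in STAT3KO, and stayed below the 15891 and 12423 CPM with the GFP plasmid. The growth hormone receptor Ghr stood at 139, 104 and 207 CPM in wild type and 811, 613 and 731 CPM in STAT3KO (2.26 ± 0.32). Of 20 clock genes 10 rose and 3 fell, with Tef (1.88 ± 0.26) and Per3 (2.42 ± 0.35) up. The labels give no time of day, so its part was not tested. Of 26 hepatocyte transcription factors 7 rose and 2 fell, where the higher count was 3 without wild-type replicate 1 and 4 without STAT3KO replicate 1. Hnf4a, the master factor of hepatocyte identity, was chosen after its values were seen and stood at 728, 774 and 853 CPM in wild type and 728, 759 and 881 CPM in STAT3KO (0.01 ± 0.29, adjusted p = 0.987).

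Injured hepatocytes are known to switch on genes of bile duct and progenitor cells. Of 16 such genes tested 8 fell and none rose (median -2.10). Osteopontin (Spp1), a secreted matrix protein, stood at 10654, 6805 and 2114 CPM in wild type, 3.96, 41.5 and 28.2 CPM in STAT3KO and 1.67 and 3.44 CPM with the GFP plasmid (-8.05 ± 1.49, adjusted p = 0.00203). Wild-type replicate 3 was the lowest of its group and still above every STAT3KO library. Tnfrsf12a, the receptor of the regeneration signal TWEAK, stood at 86.8, 80.8 and 40.1 CPM in wild type and 4.71, 7.21 and 5.13 CPM in STAT3KO (-3.60 ± 0.31). Epcam, a surface protein of bile duct cells, stood at 1.82, 0.801 and 1.68 CPM in wild type and had no count in STAT3KO, at least 23.1-fold lower. Of 21 keratin and cytoskeleton genes 8 fell and 1 rose, a lower count that was 5 without wild-type replicate 1, 5 without wild-type replicate 2, 5 without STAT3KO replicate 1 and 5 without STAT3KO replicate 3, with the tubulin Tubb5 at 253, 238 and 187 and 50.03, 57.2 and 55.2 CPM (-2.06 ± 0.25). Of 27 growth factors and their receptors 11 fell and 3 rose. Fst, the activin antagonist follistatin, stood at 25.2, 17.9 and 16.03 CPM in wild type and 3.53, 4.10 and 3.91 CPM in STAT3KO (-2.35 ± 0.38). Of 39 cell cycle and replication genes 4 rose and 1 fell, shares at or below the background of 13% and 13.4%. Of 17 YAP and TEAD genes 2 were higher and 2 lower, again near the background.

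Markers of other liver cells were read beside these groups, since sorted hepatocytes can carry other cells along. The hepatocyte label itself was checked with 17 markers, all detected, whose sum ranged from 71371 to 186476 CPM in wild type and from 115139 to 188158 CPM in STAT3KO. Class II genes and Cd74 are also expressed by Kupffer cells and dendritic cells, and Spp1 and Epcam by bile duct cells. Of 12 Kupffer cell markers none was called by edgeR or DESeq2 and none had an unadjusted p under 0.05, and their sum ranged from 95.95 to 205.3 CPM in wild type and from 126.9 to 308.8 CPM in STAT3KO. Of 14 macrophage and monocyte markers 1 rose, and the sums were 55.5 to 74.6 CPM in wild type and 152 to 263.7 CPM in STAT3KO, without overlap. Of 5 dendritic cell markers Siglech rose, from no count to 0.495, 0.746 and 0.583 CPM, and the sums were 3.24 to 4.62 CPM in wild type and 6.36 to 9.13 CPM in STAT3KO, without overlap. Sinusoidal endothelial markers (13) and stellate cell markers (14) gave no call by edgeR, with 0 and 2 genes at an unadjusted p under 0.05, and DESeq2 called 0 and 1. Of 8 neutrophil markers 5 fell, with summed levels of 34.7, 18.4 and 2.25 CPM in wild type and 0.681, 1.61 and 3.15 CPM in STAT3KO, and Ly6g, Retnlg and Cxcr2 were not analysed here. That count was 0 in a fit of the 6 libraries alone and 3 by DESeq2, and 0 without wild-type replicate 1, 0 without wild-type replicate 2, 1 without STAT3KO replicate 1, 3 without STAT3KO replicate 2 and 2 without STAT3KO replicate 3. Of 6 cholangiocyte markers 5 fell, with sums without Spp1 of 109 to 123 CPM in wild type and 19.5 to 25.0 CPM in STAT3KO, and Krt19 and Cftr were not analysed here. Of 14 T and NK cell markers 6 were measured, and Cd28, a costimulatory receptor, fell (10.7, 22.4 and 36.8 against 0.248, 0.124 and 0.0583 CPM, -7.29 ± 0.69). Without it the sums ranged from 1.05 to 1.58 CPM in wild type and from 3.22 to 4.14 CPM in STAT3KO. Cd4 was called higher (2.37 ± 0.76), a call lost without any single library but wild-type replicate 3 (adjusted p up to 0.134). Of the erythroid markers, Alas2, the haem synthesis enzyme of red cell precursors, rose from 5.05, 3.08 and 7.99 CPM in wild type to 83.0, 70.0 and 116 CPM in STAT3KO, with 161 and 175 CPM in the GFP plasmid libraries (4.05 ± 0.33). The other measured erythroid markers were near 0, with sums of 0 to 0.250 CPM in wild type and 0.0619 to 0.408 CPM in STAT3KO. No measured marker was at 0 in all 6 libraries. How far other cells contribute to the class II, chemokine and bile duct genes was not tested.

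**Figure D4:**
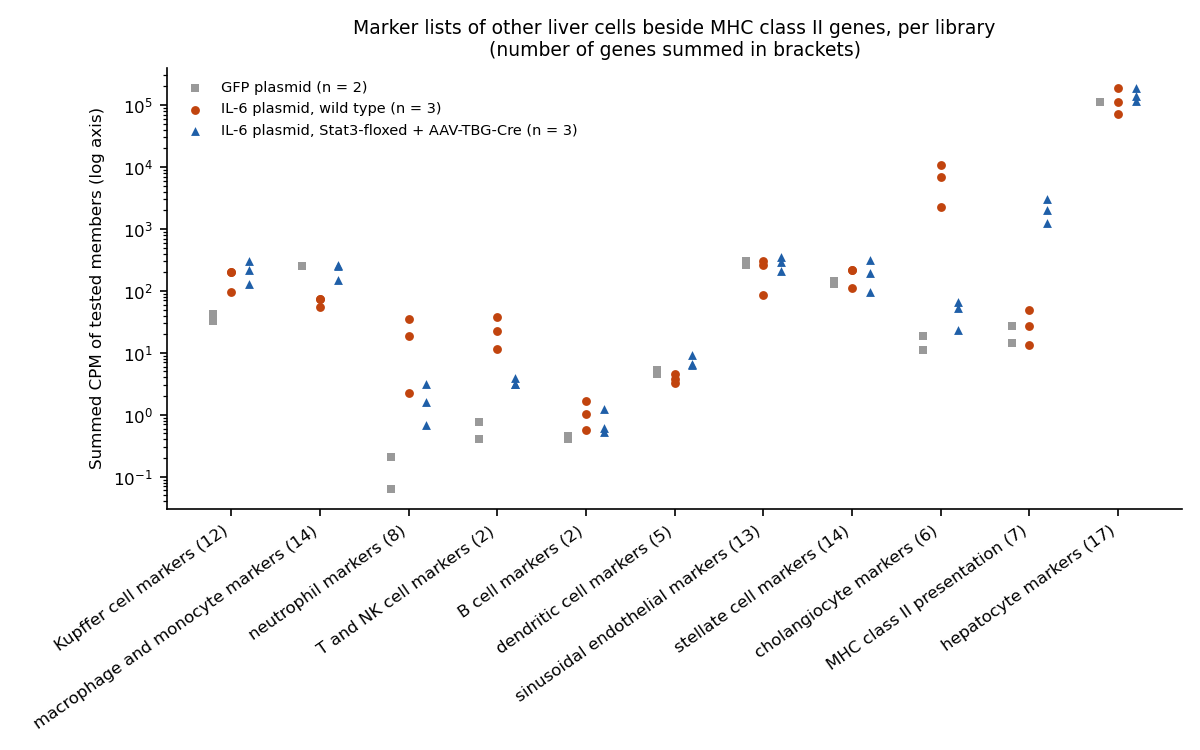
Summed level of the tested markers of each cell type, with MHC class II genes beside them, in each library (y axis, CPM on a log scale), a point per library of the GFP plasmid, IL6 and IL6_STAT3KO groups. Kupffer, endothelial and stellate cell sums overlap between the IL6 and IL6_STAT3KO groups, cholangiocyte sums are higher in all 3 IL6 libraries and class II sums in all 3 IL6_STAT3KO libraries.

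The same deletion under the DDC diet, which blocks haem synthesis and injures bile ducts, gave a reference for the IL-6 result. No gene was called between DDC_STAT3KO and DDC libraries (0.00% of 14339) by edgeR, where 803 had an unadjusted p under 0.05, and DESeq2 called 9. The groups are smaller there (3 and 2 libraries) and both were floxed, so the pairs of groups differ in more than IL-6 and diet. The difference between the effects was tested as an interaction in the same fit, and 1187 genes (8.28%) were called, 602 (4.20%) with a higher and 585 (4.08%) with a lower effect under IL-6. Acute phase genes made up 16 of the lower calls out of 22 tested, MHC class II genes 7 of 7 higher calls, guanylate-binding proteins 9 of 11 and immunity-related GTPases 9 of 14. Antiviral genes gave 24 of 45, glutathione S-transferases 13 of 21 and cytosolic ribosomal proteins 19 of 49 on the lower side. Bile duct and progenitor genes gave 3 of 16.

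Single genes show the contrast to different degrees. Cd74 differed by 6.40 on the log2 scale under IL-6 and by -0.05 under DDC, a difference of 6.46 ± 1.04 (adjusted p = 0.00326, edgeR). Hp, with 6617 and 5648 CPM in DDC and 8125, 3934 and 3843 CPM in DDC_STAT3KO, differed by -3.51 under IL-6 and -0.21 under DDC (-3.30 ± 0.49, adjusted p = 0.00192). Xbp1 differed by -2.20 and 0.05 (-2.25 ± 0.32, adjusted p = 0.00169). DDC effects were larger for some genes, though none was called. They were -4.90 for Saa1, -5.43 for Saa2, -1.415 for Socs3 and -0.94 for Stat3. The 22 acute phase genes had a median of -0.99 under DDC. The difference was called for Saa1 (adjusted p = 0.0180, edgeR) and Socs3 (3.42e-04), but not for Saa2 (0.138) or Stat3 (0.119). Spp1, at 486 and 539 CPM in DDC and 244, 226 and 2.32 CPM in DDC_STAT3KO, differed by -8.05 and -1.70, and this difference was -6.35 ± 1.87 (adjusted p = 0.0573). The interaction count depended on single libraries, falling to 695 without wild-type IL6 replicate 2, 722 without IL6_STAT3KO replicate 3, 612 without DDC replicate 1 and 459 without DDC replicate 2.

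**Figure D5:**
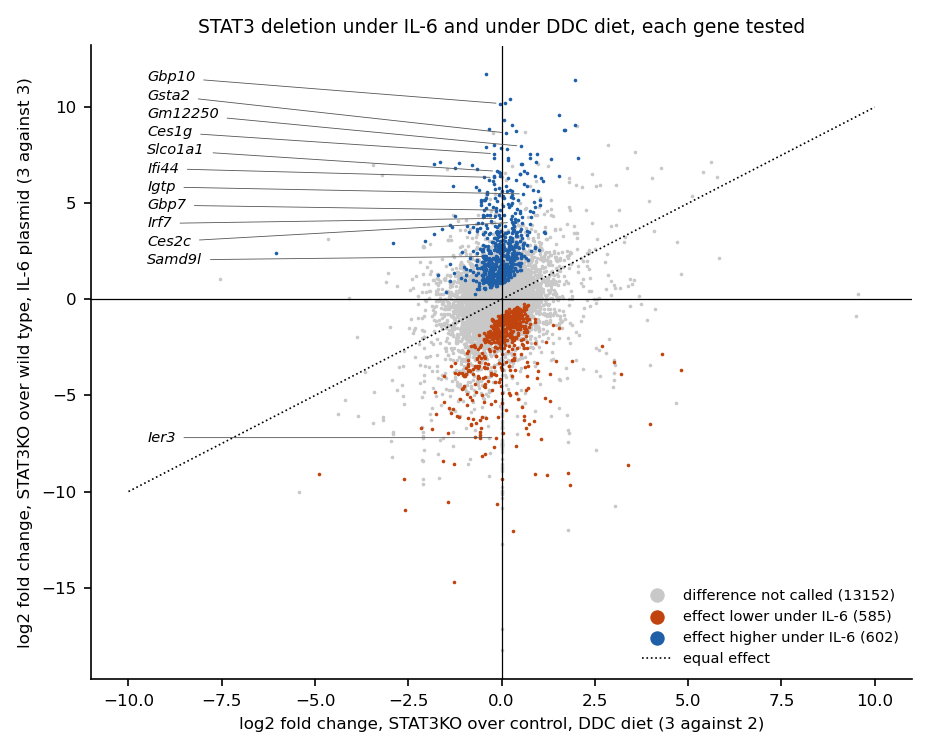
Log2 fold change of STAT3KO over its control under the DDC diet (x axis, 3 against 2 libraries) and under IL-6 (y axis, 3 against 3 libraries), a point per tested gene, coloured where the difference of effects was called (602 higher, 585 lower), with a dotted line of equal effect. The 12 labelled genes are those with the smallest adjusted p of the difference among the genes named by the rules of this report, not among all genes tested. Of these 12, Ier3 lies at the bottom, interferon genes and metabolic enzymes at the top, with x values near 0.

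Genes beside Stat3 on chromosome 11 were counted separately, since a floxed allele is inherited with its flanking sequence in a mixed strain. Within 1 Mb of Stat3, 6 of 50 tested genes were higher and 5 lower (22% called). Within 10 Mb, 24 of 240 were higher and 28 lower (21.7%), against 26.4% of all genes tested. Both counts include Stat3 itself, which is among the lower genes. The neighbours Stat5a (13.7, 15.5 and 17.3 against 14.3, 8.20 and 10.8 CPM) and Stat5b (58.1, 52.4 and 51.7 against 78.6, 49.3 and 61.8 CPM) were not called. Dhx58, the RNA sensor named above, lies in that window at chr11:100694884-100704271 and rose with the other sensors.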

How the data were processed

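RNA of sorted hepatocytes from 13 libraries in 5 groups was analysed, with 13625040 to 18428988 counts a library. The deposited values are raw read counts per gene; per the submitters' processing notes the tools were STAR, HTSeq and DESeq2 with mm10, whose settings and use of strand stand in no source used here. Hepatocytes, per the labels' protocols, came from perfused livers, were sorted by flow cytometry and were made into TruSeq libraries from 1 ug of RNA. The table held 18668 genes, none with fewer than 10 counts in all. The EGFP transgene stayed out of library sizes and tests. Symbols came from the reference tables by gene ID, of which 48 had no unique symbol. Counts were fitted with edgeR 4.0.16 (R 4.3.3, limma 3.58.1): TMM scaling, filterByExpr by group (14339 genes), 1 term per group over all 13 libraries (8 residual degrees of freedom), quasi-likelihood F test, Benjamini-Hochberg adjustment, called under 0.05. A difference of differences tested the deletion under IL-6 against that under DDC. CPM use TMM-scaled sizes, and SE is the absolute log2 value over the square root of F. Fits were tested on simulated counts. Alternatives were median-of-ratios scaling, no filter, DESeq2 1.42.0, a replicate block, the 6 libraries alone, a log2 size over 1 and each library left out.

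Genes named were the IL-6 pathway genes Stat3, Il6, Il6ra, Il6st and Socs3, the 15 largest fold changes per direction above 20 CPM without overlap, the 10 largest CPM differences per direction, and up to 4 members of a list with up to 2 against its trend. Alb, Ciita, Hnf4a, Ifit3, Ifnar1, Ifngr1, Ifnlr1, Irf1, Irgm1, Irgm2, Saa4, Stat5a, Stat5b and Steap4 were added after their values were seen. Members and lists were chosen with earlier results of these data known. Lists are described by counts and medians without a test of their own. The labels' replicate numbers name libraries and were not used as pairs. Immune cell libraries were not used here. A few results for single genes are not reported here.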

Additional observations from a re-analysis of the deposited data

Results flagged for a closer look

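The effect of the deletion differed between IL-6 and DDC for 1187 genes by the interaction test (edgeR quasi-likelihood test, Benjamini-Hochberg adjustment, 3 and 3 libraries against 3 and 2), and the 12 named genes with the smallest adjusted p are given here. The differences of log2 effects, IL-6 minus DDC, were positive for interferon genes. They were 7.45 for the GTPase Gm12250 (adjusted p = 1.82e-05), 4.26 for Irf7, 4.90 for the GTPase Igtp, 2.64 for Samd9l, 4.68 for Gbp7, 10.23 for Gbp10 and 6.54 for Ifi44 (adjusted p = 1.89e-04 for the last). Enzymes and a carrier of the hepatocyte gave positive values as well, at 7.77 for Ces1g, 3.73 for Ces2c, 8.54 for Gsta2 and 6.79 for the uptake carrier Slco1a1. The early gene Ier3 gave -7.05 (adjusted p = 8.17e-05). Under DDC none of the 12 was called, with adjusted p from 0.853 to 0.996.

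Counts of an EGFP transgene, which entered no comparison, lay above the 2.12 and 2.38 per 1000000 counts of the GFP plasmid libraries in the IL6 group. They were 7.08 per 1000000 in replicate 1, 5.06 in replicate 2 and 424 in replicate 3, against 0.545 to 1.32 in the IL6_STAT3KO libraries. The DDC libraries, from mice with AAV-TBG-GFP, held 1309 and 1496 per 1000000. The source of these counts was not tested.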

How the results depend on the processing

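Of the 3781 called genes, 2479 had a log2 fold change over 1 in size, of which 1183 were higher. Other settings gave 3787 calls with median-of-ratios scaling, 3661 without a filter, 4164 with DESeq2 and 3894 from the 6 libraries alone. With 1 library left out, the count ran from 2541 to 3564, that of higher genes from 1199 to 1830 and that of lower genes from 1264 to 1734. Without wild-type replicate 1 or 2 the higher count was 1229 and 1199, and without STAT3KO replicate 3 the lower count was 1264. Fewer libraries were tested there. The interaction gave 1874 calls with DESeq2, 998 of them lower, and with 1 library left out 459 to 1611 calls, 304 to 858 higher and 155 to 753 lower. The cause of the DESeq2 difference was not tested. The median of all genes moved by at most 0.031 on the log2 scale. Replicate numbers did not pair the libraries, with correlations of deviations from the group means of -0.150, 0.092 and 0.058 for numbers 1, 2 and 3. With the replicate number as a block, 3831 genes were called for the genotype under IL-6 and 1298 for the interaction. The block left Ifnlr1, Il18 and Pdk4 at adjusted p = 0.0523, 0.0537 and 0.0802. Of 158 genes named, 151 were called. Of these, 4 had no value under some setting (Il6 and Upp2 with DESeq2, Ifnlr1 and Siglech in the 6 libraries alone), and 138 of the other 147 kept their call and direction under each of these settings. The value of Hnf4a, near 0, turned to -0.0064 from the 6 libraries alone and ran from -0.076 to 0.084 with 1 library left out. Depth limits genes with few counts, whose fold changes are given as bounds or ratios, and 3 libraries a group limit the rest.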
